A study of Homo sapiens with 3 samples.

Results

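The plasminogen activation system was examined in CaSki cells as 7 genes chosen by symbol: the activators PLAT and PLAU, the receptors PLAUR, ANXA2 and S100A10, and the serpin inhibitors SERPINE2 and SERPINB2. All 7 were present among the 23277 gene symbols of each library. CaSki is an established cell line that was derived from an epidermoid carcinoma of the cervix. The NANOG siHDAC1 cells carried FLAG-tagged NANOG in the pMSCV retroviral vector and received an siRNA against HDAC1. The NANOG siGFP cells carried the same construct and received an siRNA against GFP as control. The empty vector siGFP cells carried pMSCV without insert and received the GFP siRNA, so every library came from vector-carrying, siRNA-transfected cells. NANOG is a homeobox factor of pluripotent cells, HDAC1 is a histone deacetylase, and the series asked which genes their joint action regulates. The labels do not say whether the lines were clones or pools. Cells with empty vector and HDAC1 siRNA together were not analysed here.

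Each group held 1 library, so differences below could not be set against a spread between replicates, and they carry neither p-values nor errors. Values are FPKM, fragments scaled to transcript length and to mapped fragments. Differences are of log2(FPKM + 1), taken over the 11407 genes whose mean level reached 1 FPKM, and understate the change of low genes. NANOG followed the labels, at 325 and 298 FPKM in the NANOG siHDAC1 and NANOG siGFP libraries, against 0.0357 FPKM with empty vector. HDAC1 was at 12.8 FPKM with HDAC1 siRNA, 108 FPKM with NANOG siGFP and 19.02 FPKM with empty vector, so its level in the HDAC1 siRNA library lies far closer to the empty vector library than to the NANOG siGFP library. Keratinocyte and cervical epithelium markers summed to 5040, 5907 and 5762 FPKM in that order, and all 12 were detected in each library. Endothelial markers, relevant because endothelium is a known source of tissue plasminogen activator, summed to at most 0.637 FPKM.

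Plasmin is a broad serine protease that is cut from its inactive precursor plasminogen. Tissue plasminogen activator (PLAT) acts on plasminogen mainly at fibrin, whereas urokinase (PLAU) acts at cell surfaces, bound to its lipid-anchored receptor PLAUR. The annexin A2 and S100A10 proteins form a tetramer that binds plasminogen and tissue plasminogen activator, and the serpins trap the activators in dead-end complexes. Urokinase, its receptor and SERPINB2 are long known from keratinocytes and squamous carcinomas. Plasminogen itself is made mainly in liver, and PLG was listed at 0 in all 3 libraries, so these data bear on the activating machinery and not on its substrate.

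Both activators were expressed, but only PLAT stood far apart between groups. PLAT was at 8.75 FPKM in the NANOG siHDAC1 library, 8.52 FPKM in the NANOG siGFP library and 45.9 FPKM in the empty vector library. Both NANOG libraries were thus low and close to each other. The log2 difference was -2.30 for NANOG siGFP against empty vector, 5.38 times lower in FPKM, and -2.26 for NANOG siHDAC1 against empty vector. Between the NANOG libraries it was 0.03. In bulk RNA, fewer cells that express PLAT and less PLAT RNA per cell cannot be told apart. PLAT held the 8th lowest difference of 11407 genes in the first of these comparisons and the 3rd lowest in the second. By level it was the 1913th gene with empty vector and the 6733rd and 6810th in the NANOG siHDAC1 and NANOG siGFP libraries.

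PLAU, which encodes urokinase, was at 60.8 FPKM in the NANOG siHDAC1 library, 48.3 FPKM with NANOG siGFP and 51.5 FPKM with empty vector. The HDAC1 siRNA library was the highest, and the siGFP libraries lay close together. The log2 difference was 0.33 for HDAC1 siRNA against GFP siRNA in NANOG cells, and -0.09 for NANOG siGFP against empty vector. On this per-length scale PLAU exceeded PLAT 6.95 times in the NANOG siHDAC1 library, 5.67 times in the NANOG siGFP library and only 1.12 times with empty vector. PLAT gave 12.6% and 15.0% of the summed activator FPKM in these NANOG libraries and 47.1% with empty vector. An antisense gene, C10orf55, overlaps PLAU and stood at 0.448 to 0.593 FPKM. The labels name a stranded library kit, but the sources used here do not say how strand was handled in making the FPKM values.

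S100A10 varied least of the 7 genes, and no receptor was 2-fold apart in any comparison. PLAUR was at 103 FPKM in the NANOG siHDAC1 library, 86.1 FPKM with NANOG siGFP and 85.3 FPKM with empty vector, again with the HDAC1 siRNA library highest. Its log2 difference was 0.26 for HDAC1 siRNA against GFP siRNA and 0.01 for NANOG siGFP against empty vector. ANXA2, the plasminogen-binding annexin, was at 2133 FPKM with NANOG siHDAC1, 2191 FPKM with NANOG siGFP and 2621 FPKM with empty vector. It was the 14th, 14th and 15th most abundant of the 11407 genes, and the empty vector library was the highest. Its differences were -0.04 between the NANOG libraries and -0.26 for NANOG siGFP against empty vector. S100A10, its small EF-hand partner, was at 837 FPKM with NANOG siHDAC1, 851 FPKM with NANOG siGFP and 845 FPKM with empty vector. The largest log2 difference between these S100A10 values was 0.02 in size. ANXA2 exceeded S100A10 in FPKM by 2.55, 2.57 and 3.10 times in the NANOG siHDAC1, NANOG siGFP and empty vector libraries. Both together made up 90.9%, 91.4% and 92.7% of the summed FPKM of the 7 genes. ANXA2 has processed copies of near-identical sequence; ANXA2P2 was listed at 7.52 to 11.04 FPKM, so part of the signal may be assigned to the wrong copy and the ANXA2 value is to that extent uncertain.

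Of the serpins, SERPINE2 differed between all libraries and SERPINB2 little. SERPINE2 encodes protease nexin-1, which inhibits thrombin, urokinase and tissue plasminogen activator. SERPINE2 was at 70.3 FPKM in the NANOG siHDAC1 library, 97.3 FPKM in the NANOG siGFP library and 42.6 FPKM in the empty vector library. The NANOG siHDAC1 value lay between the other two. The log2 difference was 1.17 for NANOG siGFP against empty vector, the 51st highest of all genes. It was -0.46 for HDAC1 siRNA against GFP siRNA, the 319th lowest, and 0.71 for NANOG siHDAC1 against empty vector. SERPINB2, which encodes plasminogen activator inhibitor 2, was at 55.8 FPKM with NANOG siHDAC1, 44.2 FPKM with NANOG siGFP and 47.2 FPKM with empty vector. Its differences of 0.33 for HDAC1 siRNA against GFP siRNA and -0.09 for NANOG siGFP against empty vector were like those of PLAU. SERPINE2 exceeded SERPINB2 by 1.26 and 2.20 times in FPKM in the NANOG siHDAC1 and NANOG siGFP libraries, and stood at 0.902 of it with empty vector.

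**Figure D1:**
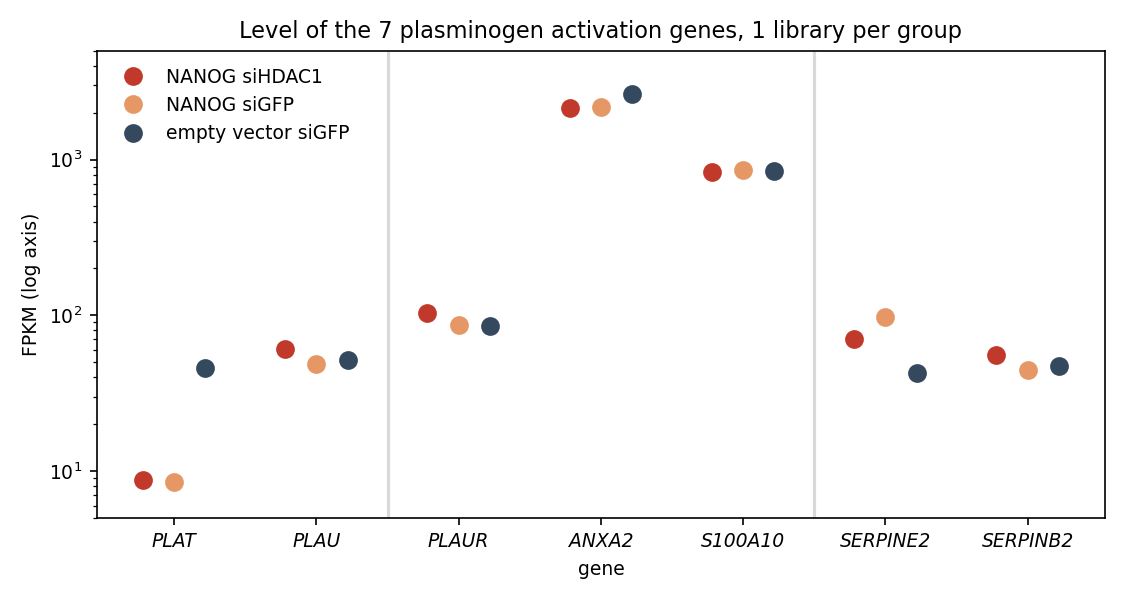
FPKM (log axis) of the 7 genes, 1 point per library, with the NANOG siHDAC1, NANOG siGFP and empty vector libraries from left to right. PLAT is low in both NANOG libraries (8.75 and 8.52 FPKM, against 45.9 FPKM), and SERPINE2 is highest with NANOG siGFP at 97.3 FPKM.

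The order of levels differed only in the place of SERPINE2. With NANOG siHDAC1 it ran ANXA2, S100A10, PLAUR, SERPINE2, PLAU, SERPINB2 and PLAT from high to low. In the NANOG siGFP library SERPINE2 stood above PLAUR. With empty vector the order was ANXA2, S100A10, PLAUR, PLAU, SERPINB2, PLAT and SERPINE2, and the last 4 lay between 42.6 and 51.5 FPKM. With 1 library per group it cannot be said which neighbours differ beyond their spread.

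The starts of these genes are shown as a description. PLAU, PLAUR and SERPINB2 had similar small differences with HDAC1 siRNA, while SERPINE2 and ANXA2 did not. Whether any motif bears on these differences was not tested. The set of RefSeq windows of build GRCh38.p14 used here covered 6 of the 7 genes. PLAT was not in that set, so its start was not examined, and its absence says nothing of the gene. S100A10, at -0.02 with HDAC1 siRNA against GFP siRNA, has a window without an AP-1 match that is not printed. The values were made on hg19, and which start the cells used was not measured. Each sequence below is the 250 bases before the annotated start, on the strand of the gene, and capitals mark matches to the AP-1 motif TGANTCA, a palindrome that reads alike on both strands. AP-1 factors are the FOS and JUN proteins, known regulators of PLAU and PLAUR in other cells. PLAU has a pair of windows; the one shown ends at a start that lies within 50 bases of both GENCODE starts of the gene. Of the SERPINE2 windows, the one whose start lies within 50 bases of a GENCODE start is shown.
PLAU, chr10:73910882-73911131, plus strand: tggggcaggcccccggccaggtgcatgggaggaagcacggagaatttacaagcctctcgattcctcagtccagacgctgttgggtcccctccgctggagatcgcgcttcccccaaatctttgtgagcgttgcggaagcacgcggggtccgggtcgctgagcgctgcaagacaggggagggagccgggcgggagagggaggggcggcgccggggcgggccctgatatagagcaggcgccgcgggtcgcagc
PLAUR, chr19:43670170-43670419, minus strand: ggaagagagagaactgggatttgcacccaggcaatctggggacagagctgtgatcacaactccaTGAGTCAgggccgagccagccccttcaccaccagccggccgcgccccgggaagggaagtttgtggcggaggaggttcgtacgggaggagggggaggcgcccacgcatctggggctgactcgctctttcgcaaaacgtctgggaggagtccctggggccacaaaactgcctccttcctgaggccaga
SERPINB2, chr18:63887455-63887704, plus strand: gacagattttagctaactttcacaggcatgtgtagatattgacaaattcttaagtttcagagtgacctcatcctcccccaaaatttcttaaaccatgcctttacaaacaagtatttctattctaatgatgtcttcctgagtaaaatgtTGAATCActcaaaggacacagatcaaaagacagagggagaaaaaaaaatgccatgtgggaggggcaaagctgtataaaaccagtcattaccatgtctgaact
SERPINE2, chr2:224031479-224031728, minus strand: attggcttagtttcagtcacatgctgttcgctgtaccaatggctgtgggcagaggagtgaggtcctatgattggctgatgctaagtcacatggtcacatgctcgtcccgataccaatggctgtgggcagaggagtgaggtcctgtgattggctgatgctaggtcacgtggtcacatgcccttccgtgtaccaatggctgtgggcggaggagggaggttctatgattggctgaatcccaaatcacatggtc
ANXA2, chr15:60397987-60398236, minus strand: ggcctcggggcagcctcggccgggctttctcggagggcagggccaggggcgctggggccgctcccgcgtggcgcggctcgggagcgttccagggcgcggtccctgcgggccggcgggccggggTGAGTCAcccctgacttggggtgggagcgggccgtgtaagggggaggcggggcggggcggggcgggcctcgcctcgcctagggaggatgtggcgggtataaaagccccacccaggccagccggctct

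One AP-1 match each was found in PLAUR (bases -186 to -180 from the start), SERPINB2 (-102 to -96) and ANXA2 (-127 to -121). Matches occurred in 6.57% of all 35116 windows of this length. PLAUR and SERPINB2 were higher with HDAC1 siRNA and ANXA2 was not, and PLAU, which was higher too, has no match in its window. PLAU has 3 GC boxes (GGGCGG, either strand, in 42.6% of all windows) between -66 and -35. ANXA2 has 3 overlapping ones and, like SERPINB2, a TATA box (TATAAA, in 10.7%) at about -30. GC boxes lie in the S100A10 window and in the SERPINE2 windows too. The printed SERPINE2 window also contains a hypoxia response core (ACGTG, in 18.5%) on both strands from -87 to -82, where the matches overlap. The letters TAATGG, a NANOG-type core found in 5.90% of windows, and the cAMP response element TGACGTCA, found in 1.65%, occurred in none of the 8 windows of these 6 genes. The motifs were chosen after the sequences had been read. A match is a description and not a bound site, and absence from so short a window says nothing of the factor.

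**Figure D2:**
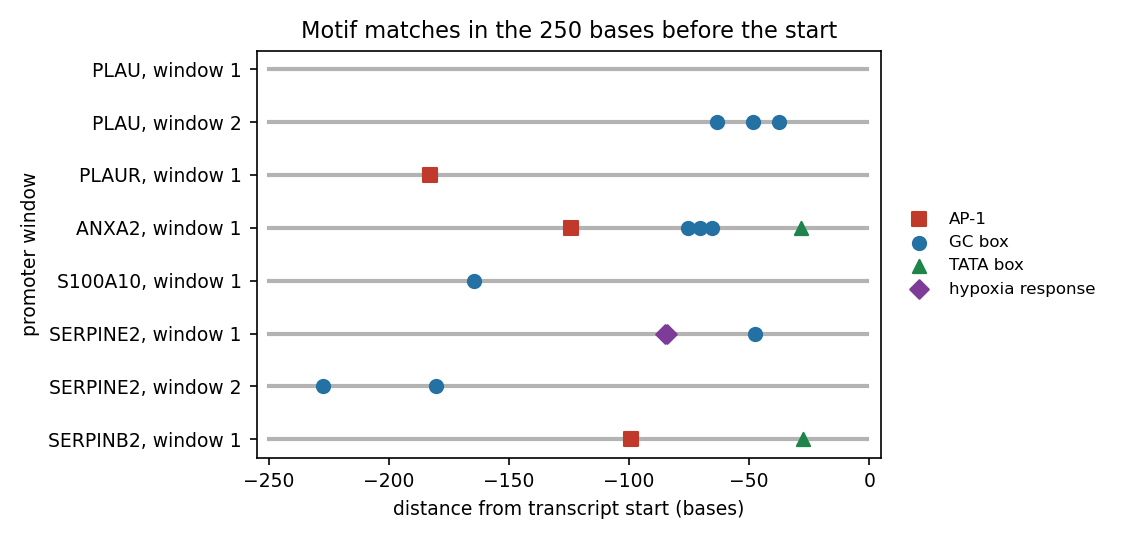
Motif matches by distance from the annotated transcript start (bases) in the 8 RefSeq windows of 6 genes, each grey line covering 250 bases. AP-1 matches lie in the PLAUR, ANXA2 and SERPINB2 windows, and the 3 GC boxes of PLAU lie close to its start.

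With HDAC1 siRNA against GFP siRNA in NANOG cells, 0 of the 7 were 2-fold higher or more, where 0.0877% of all genes were (10 genes). Likewise 0 of the 7 were 2-fold lower or more, where 0.21% of all genes were (24 genes). PLAU, PLAUR and SERPINB2, a protease, its receptor and its inhibitor, were each higher by 0.26 to 0.33. These differences ranked 553rd, 998th and 540th from the highest of 11407 genes. For PLAU, the 5th to 95th percentile of 2424 genes within 2-fold of its mean level ran from -0.33 to 0.33, so its value lay at the upper edge. PLAUR lay inside the corresponding range and SERPINB2 just above it, at 0.328 against 0.322. SERPINE2, at -0.46, was below its range of -0.31 to 0.32, and PLAT, ANXA2 and S100A10 were inside theirs. The median of the 7 was 0.03, beside 0.01 over all genes. Rescaling to TPM over all symbols, small RNAs included, shifted the median of all genes to 0.18 and gave 21 higher and 16 lower genes. On that scale PLAU and SERPINB2 were at 0.51 and PLAUR at 0.44, still above the shifted median, and SERPINE2 at -0.28, below it. ANXA2 and S100A10 turned to 0.14 and 0.16, both slightly below that median.

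The NANOG siGFP library against empty vector had 1 of the 7 genes, SERPINE2, higher by 2-fold or more, where 0.675% of all genes were. It had 1 gene, PLAT, lower by 2-fold or more, where 1.22% were. The genes were chosen with these values known, so the counts describe them and carry no further weight. PLAU, PLAUR, S100A10 and SERPINB2 differed by at most 0.09 in size, well within the range of genes at a like level (-0.65 to 0.47 for PLAU). ANXA2, at -0.26, was inside its range of -0.69 to 0.20. The median of the 7 was -0.09, beside -0.01 over all genes.

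NANOG siHDAC1 against empty vector uses the same empty vector library, so it is no independent view of the NANOG cells. There PLAT, at -2.26, was the only one of the 7 at least 2-fold lower, where 0.824% of all genes were, and 0 were at least 2-fold higher, where 0.368% were. SERPINE2 was at 0.71, above its like-level range of -0.52 to 0.38. PLAUR was at 0.27, PLAU at 0.24 and SERPINB2 at 0.23, all inside theirs, and ANXA2 was at -0.30. TPM gave 70 higher and 78 lower genes in place of 42 and 94, with the median of all genes at 0.13.

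**Figure D3:**
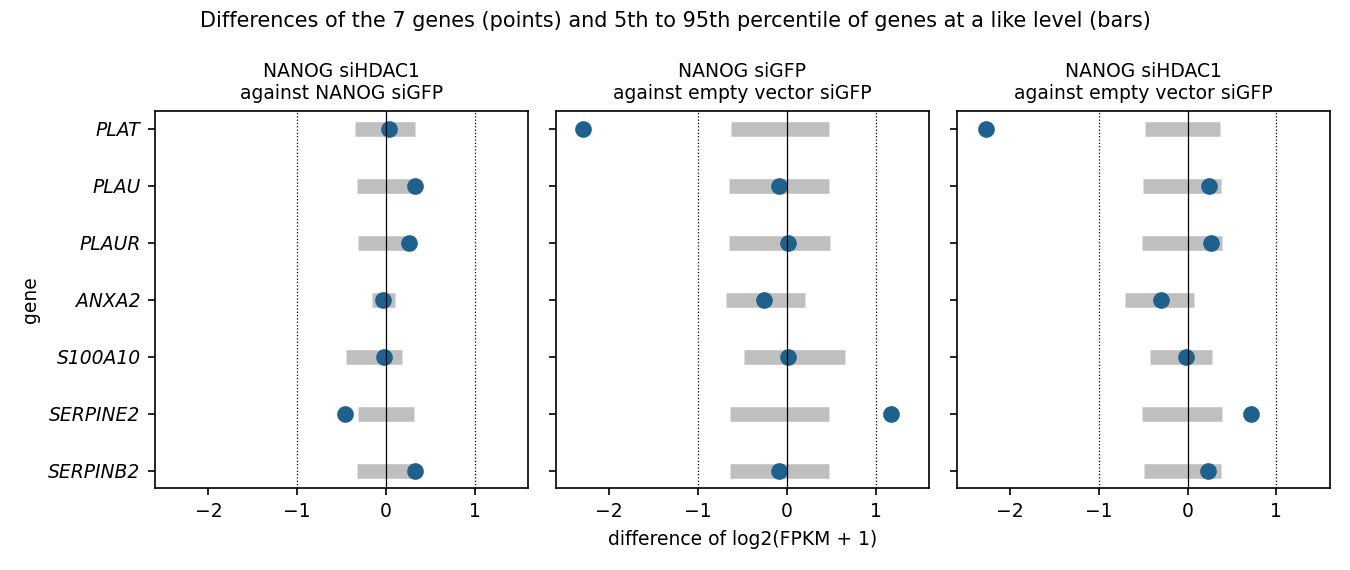
Difference of log2(FPKM + 1) of the 7 genes in the 3 comparisons (points), with the 5th to 95th percentile of genes within 2-fold of the same mean FPKM (grey bars) and dotted lines at -1 and 1. PLAT and SERPINE2 lie outside the bars against empty vector, and SERPINE2 lies below its bar, at -0.46, between the NANOG libraries.

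Summed levels put the members' changes side by side. The activators PLAT and PLAU summed to 69.6 FPKM in the NANOG siHDAC1 library, 56.9 FPKM with NANOG siGFP and 97.4 FPKM with empty vector. SERPINE2 and SERPINB2 summed to 126, 142 and 89.8 FPKM in these libraries, which is 1.81, 2.49 and 0.922 times the activators. These ratios cover the named genes alone, not all inhibitors of the activators; they compare RNA levels per length and measure no protein or proteolytic activity.

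Genes with the most similar pattern were sought by the distance between their pairs of log2 differences over the 3 libraries, over the 8689 other genes that reached 5 FPKM in their highest library. For PLAT the nearest was C12orf36 (2.31, 2.26 and 13.3 FPKM with NANOG siHDAC1, NANOG siGFP and empty vector; distance 0.16). The next were ARNT2, a partner of bHLH-PAS transcription factors (2.80, 2.84 and 15.6 FPKM; distance 0.19), and NOG, the gene of the secreted BMP antagonist noggin (2.94, 2.80 and 15.3 FPKM; distance 0.20). Only these 3 genes lay within 0.2 of PLAT. For SERPINE2 the nearest was GSR, which encodes glutathione reductase, at 39.2, 53.8 and 23.1 FPKM (distance 0.02). C5orf45 followed at 31.3, 43.4 and 19.6 FPKM (distance 0.06), then the chaperone gene DNAJB4 at 19.8, 26.2 and 11.1 FPKM (distance 0.08). SERPINE2 had 14 genes within 0.2. The other 5 members differed by less than 0.5 in every comparison and were not searched.

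Of 96 further genes of the system with a symbol in the files, 68 passed the level filter. With NANOG siGFP against empty vector, 46 were lower and 22 higher, and the median was -0.29, beside -0.01 over all genes. Of all 11407 genes, 5793 were lower and 5613 higher. Whether genes of a like level lean the same way was not tested, for these 68 or for the lists below. Of the 68, 4 were higher by 2-fold or more, where 0.675% of all genes were, and 5 were lower by as much, where 1.22% were. These lists too were chosen with earlier results of these data known, so the counts are a description. With HDAC1 siRNA against GFP siRNA 34 were higher and 34 lower, with a median of 0.00, and 1, CTSD, was lower by 2-fold or more, where 0.21% of all genes were. Under TPM 19 were lower there, with a median of 0.176 beside 0.184 over all genes.

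Inhibitors outside the 7 were lower with NANOG siGFP in 6 of 8 cases (median -0.39). SPINT2, a Kunitz inhibitor of membrane serine proteases, was at 430 FPKM with NANOG siHDAC1, 378 FPKM with NANOG siGFP and 549 FPKM with empty vector. The intracellular serpin gene SERPINB6 was at 37.4, 35.1 and 50.6 FPKM. SERPINE2 was thus higher with NANOG siGFP while most of these inhibitors were lower.

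Among other proteases and their cofactors, 5 of 8 were lower with NANOG siGFP against empty vector. F3, which encodes tissue factor, was at 226 FPKM with NANOG siHDAC1, 227 FPKM with NANOG siGFP and 336 FPKM with empty vector. It was lower in both NANOG libraries, as PLAT was, but by far less. For NANOG siGFP against empty vector F3 was at -0.57 and PLAT at -2.30. PRSS8, which encodes the membrane protease prostasin, was at 56.2, 40.5 and 99.7 FPKM. The lysosomal protease gene CTSL1 was at 78.2, 92.4 and 46.6 FPKM. CTSD, which encodes cathepsin D, was at 103 and 327 FPKM in the NANOG siHDAC1 and NANOG siGFP libraries, against 111 FPKM with empty vector, high in the NANOG siGFP library alone as HDAC1 was.

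In a list of cell-surface partners and relatives of the urokinase receptor, 10 of 11 genes were lower with NANOG siGFP (median -0.44). PLAUR itself was at 0.01, and over all genes 5793 of 11407 were lower. The integrin gene ITGB6 was at 12.8 FPKM with NANOG siHDAC1, 13.0 FPKM with NANOG siGFP and 29.8 FPKM with empty vector. ITGA5, the fibronectin receptor subunit, was at 43.9, 28.6 and 52.3 FPKM, with a difference of 0.60 for HDAC1 siRNA against GFP siRNA. The growth factor receptor genes MET (-0.63) and EGFR (-0.36) were lower with NANOG siGFP against empty vector, as were ITGB5 (-0.58) and ITGA3 (-0.37). CAV1, the caveolin gene and the most abundant of this list, was at -0.36. LYPD3, a relative of PLAUR in the same domain family, was the exception at 0.73 (75.7, 72.3 and 43.2 FPKM).

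Receptors that clear activator and serpin complexes were lower with NANOG siGFP in 7 of 9 cases (median -0.28). VLDLR was at 18.8 FPKM with NANOG siHDAC1, 11.1 FPKM with NANOG siGFP and 33.9 FPKM with empty vector. LRP1, the main clearance receptor, was low throughout, at 2.00, 2.56 and 4.25 FPKM.

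Other plasminogen binders went different ways with NANOG siGFP. ENO1, a glycolytic enzyme that also binds plasminogen at the cell surface, was at 2189 FPKM with NANOG siHDAC1, 2157 FPKM with NANOG siGFP and 2940 FPKM with empty vector. IGFBP3, an IGF-binding protein gene, was at 105, 117 and 371 FPKM. KRT8, a keratin reported as a plasminogen receptor, was at 1050, 1434 and 960 FPKM. TIMP1, a metalloproteinase inhibitor kept in the same list, was at 49.6, 40.8 and 23.6 FPKM. Of the other annexins, 8 of 12 were lower (median -0.06); the most abundant, ANXA1, was at 890, 896 and 905 FPKM. ANXA3 was at 141, 118 and 205 FPKM, and ANXA10 at 1.71, 1.95 and 0.188 FPKM.

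Proteins that plasmin cuts or activates had 8 of 15 genes lower and 7 higher with NANOG siGFP against empty vector (median -0.17). The collagenase precursor gene MMP1 was at 5.51 and 7.86 FPKM in the NANOG siHDAC1 and NANOG siGFP libraries, against 0.536 FPKM with empty vector. The stromelysin gene MMP3 was at 15.9, 9.10 and 4.23 FPKM, highest with HDAC1 siRNA. MMP13 was at 0.878 and 2.31 FPKM with NANOG, against 0.312 FPKM with empty vector. FN1, the fibronectin gene, was at 76.5, 86.9 and 264 FPKM. THBS1 (-0.63), TGFB2 (-0.71) and VEGFA (-0.89) were lower with NANOG siGFP, and the thrombin receptor gene F2R was at 0.55 with a level near 1 FPKM. The other metalloproteinase genes that passed the filter, MMP2 (0.08) and MMP14 (-0.44), were chosen after their values were seen.

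**Figure D4:**
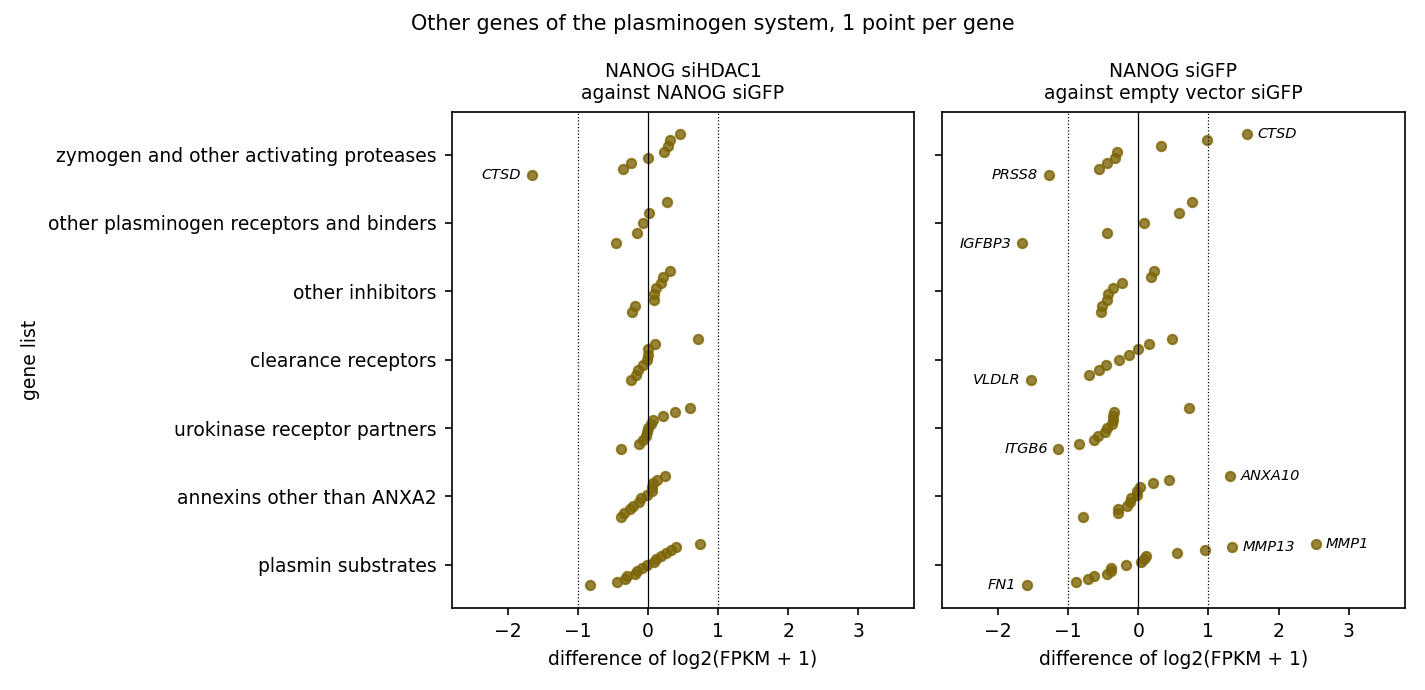
Difference of log2(FPKM + 1) for the 68 other genes of the system that passed the level filter, 1 point per gene by list, for HDAC1 siRNA against GFP siRNA in NANOG cells (left) and NANOG siGFP against empty vector (right), with dotted lines at -1 and 1. Names mark genes at least 2-fold apart: CTSD in the left panel, and 9 genes in the right panel.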

How the data were processed

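Total RNA from CaSki cells was sequenced as 1 library for each of 3 groups, assigned by sample title. The labels' protocols name Trizol and the TruSeq stranded total RNA kit. TopHat2, Cufflinks and hg19 are named, without versions or annotation, per the submitters' processing notes. The authors deposited one FPKM value per symbol and library. A few abundant RNAs can lower all other FPKM values of a library. Sums were 600749 (NANOG siHDAC1), 681947 (NANOG siGFP) and 660990 (empty vector) FPKM. Of these sums, 1625 small RNA symbols held 16.0%, 23.1% and 21.2%. The small RNAs were left out of the genes compared. TPM rescaling, however, divided by the sum over all symbols with small RNAs included, so its shifts also carry their content. Absolute depth is unknown. The most frequent ratio of values under 0.3 FPKM was 0.999 between the NANOG libraries and 0.981 for either against empty vector. Only 17.8% to 18.9% of the genes compared lay within 1% of that ratio. Relative depths may thus have been close, but they were not measured. Low genes were filtered at a mean of 1 FPKM, and the pseudocount was 1 FPKM. No test was run, since each group held 1 library.

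The named genes were the 7 members, other pathway genes that differed by 0.5 or more in any comparison plus the most abundant gene of each list, and the 3 nearest patterns of members that differed by at least 0.5. Some genes that this rule takes are left out of the text; they count in the totals of their lists. Members and lists were chosen with earlier results of these data known. Promoters came from RefSeq GRCh38.p14 and GENCODE release 29. The steps were tested on simulated data. Alternatives were other pseudocounts, filters, scalings and fold thresholds. Python 3.11.15, numpy 2.4.6, pandas 2.3.3 and matplotlib 3.10.9 were used.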

Additional observations from a re-analysis of the deposited data

How the results depend on the processing

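No paired analysis was possible because each group held 1 library, and for the same reason no replicate could be left out. The log2 differences of the 7 members were recomputed under 5 alternatives (pseudocounts of 0.1 and 0.5 FPKM, the upper quartile, a median log2 ratio of 0, and TPM). In 6 of 105 such values the sign changed, all for PLAUR, ANXA2 or S100A10 with a reported difference under 0.05 in size. PLAT against empty vector ranged from -2.41 to -2.27 with NANOG siGFP, and SERPINE2 from 1.14 to 1.20; the median of the other pathway genes there lay between -0.34 and -0.26 under rescaling, at -0.36 with a filter at 5 FPKM and at -0.10 with no filter, where 58 of 96 were lower. A 3-fold threshold left 1 member, PLAT, for NANOG siGFP against empty vector, and a 1.5-fold threshold gave 2 members for NANOG siHDAC1 against empty vector. Over all genes at least 2-fold apart, a pseudocount of 0.1 FPKM gave 69, 354 and 216 for HDAC1 siRNA against GFP siRNA, NANOG siGFP against empty vector and NANOG siHDAC1 against empty vector. In that order, the 1.5-fold threshold gave 241, 997 and 598 genes and the 3-fold threshold 11, 53 and 37. Among the other pathway genes, HDAC1 siRNA against GFP siRNA gave 2 with a pseudocount of 0.1 or 0.5 FPKM and 2 with no filter. The 1.5-fold threshold gave 5, 20 and 16 of them, and the 3-fold threshold 3 and 4 against empty vector. Depth and replicate noise are unknown, which limits small differences such as those of PLAU, PLAUR and SERPINB2.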
